A study of Mus musculus with 8 samples.

Results

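The genes described here are 40 genes of the mitotic spindle and of the G2/M transition, chosen by name for their role in cell division. They were measured in mouse embryonic fibroblasts of the C57BL/6 strain that lacked Stat5 and carried either of a pair of STAT5 mutants brought in by retrovirus. In the YF mutant the tyrosine that is phosphorylated is replaced (Y694F), and in the EA mutant the labels describe a change of EE to AA in a binding domain. The groups were EA cells without stimulation, EA cells after growth hormone for 120 minutes, YF cells without stimulation and YF cells after growth hormone for 120 minutes, with 2 arrays each. All 8 arrays share the Stat5-null background and the retroviral infection, and cells with wild-type STAT5 or with an empty vector were not analysed here. The labels do not say whether the duplicates came from separate infections, so p-values measure only the spread between these arrays, and the mutant cannot be told apart from any other difference between the infected populations. Of the 40 genes, 39 had at least 1 probe set annotated to that gene alone, 90 probe sets in all, among 18193 genes and 45037 probe sets tested. The cyclin gene Ccnb1 had none in the annotation used and is not analysed here. Each gene is represented by its brightest probe set unless another is named.

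Cells enter mitosis when the kinase Cdk1, bound to an A- or B-type cyclin, is switched on by phosphatases of the Cdc25 family. Polo-like and Aurora kinases, kinesins and kinetochore proteins then build the spindle and attach chromosomes to it, while the spindle checkpoint holds back the anaphase-promoting complex until every chromosome is attached. Most of the genes are transcribed in G2 and M phase, through a promoter element called the cell cycle genes homology region (CHR) and through CCAAT boxes, the sites of the MuvB and NF-Y complexes. In growing fibroblasts the summed level of these RNAs follows the share of cells in G2 and M, and in RNA from whole cultures fewer cells in those phases and less RNA per cell cannot be told apart.

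The promoters of 32 of the genes were in the RefSeq table used (GRCm38.p6, 34 promoters, each from 250 bases before to 50 bases after the start site). The stretches before the start site are shown for the 4 genes with the lowest p in the EA against YF comparison that had an entry, 5′ to 3′ on the strand of the gene. Capitals mark CCAAT on either strand (written ATTGG on the other) and the CHR, which was searched as TTTGAA or TTCGAA on either strand (TTCAAA is the first of these on the other strand).
Cdca8, chr4:124936918-124937167, minus strand: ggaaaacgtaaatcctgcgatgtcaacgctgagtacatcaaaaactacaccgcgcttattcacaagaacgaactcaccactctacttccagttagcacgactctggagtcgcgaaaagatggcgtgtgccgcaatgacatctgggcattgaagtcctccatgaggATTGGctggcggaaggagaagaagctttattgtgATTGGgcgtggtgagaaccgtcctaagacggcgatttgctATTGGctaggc
Bub3, chr7:131560120-131560369, plus strand: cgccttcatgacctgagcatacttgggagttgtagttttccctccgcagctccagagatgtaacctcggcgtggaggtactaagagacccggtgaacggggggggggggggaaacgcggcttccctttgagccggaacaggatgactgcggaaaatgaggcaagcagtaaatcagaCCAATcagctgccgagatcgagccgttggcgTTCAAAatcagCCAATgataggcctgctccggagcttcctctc
Nuf2, chr1:169531465-169531714, minus strand: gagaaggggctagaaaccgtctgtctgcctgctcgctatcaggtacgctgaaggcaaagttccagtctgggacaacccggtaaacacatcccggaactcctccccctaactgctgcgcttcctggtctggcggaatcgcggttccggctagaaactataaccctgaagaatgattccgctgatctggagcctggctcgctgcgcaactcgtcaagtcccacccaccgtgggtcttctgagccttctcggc
Cdk1, chr10:69352913-69353162, minus strand: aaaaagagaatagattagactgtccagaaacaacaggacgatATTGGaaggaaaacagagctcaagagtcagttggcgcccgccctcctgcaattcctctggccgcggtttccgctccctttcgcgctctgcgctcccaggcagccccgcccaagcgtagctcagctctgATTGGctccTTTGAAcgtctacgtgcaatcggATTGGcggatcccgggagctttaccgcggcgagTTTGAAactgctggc
The Cdk1 stretch held the CHR letters at 71 and 15 bases before the start site and CCAAT at 208, 80 and 48 bases before it. In Bub3 the CHR letters began 43 bases before the start site and lay between CCAAT matches at 74 and 32 bases. Cdca8 had CCAAT at 85, 51 and 11 bases before the start site. Past the stretch shown, its only CHR match began 13 bases after the start site and a further CCAAT match 18 bases after it. Nuf2 had neither motif in the window.

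The CHR letters were present in 27 of the 34 promoters (79.4%), against 19.2% of the 32851 promoters in the table and 13.6% of the 11336 promoters of genes with a mean log2 level of at least 4 here. CCAAT was present in 27 (79.4%), against 37.4% of all promoters and 37.8% of those of genes at 4 or more. Both motifs stood in 25 of the 34 promoters (73.5%), against 7.52% and 5.40%. Of 81 promoters of other mitotic genes 40.7% held both, and of 45 promoters of DNA replication and G1/S genes 11.1% did. The 35 CHR matches had their median first base 18 bases before the start site, and 26 of them (74.3%) lay between 100 bases before and 50 bases after it, compared with 41.4% of the matches in all promoters. Of the CHR matches, 1 overlapped a CCAAT match. These matches are letters found in a window, and binding was not measured. Among the genes that passed in the EA against YF comparison below, 10 of 11 promoters of 9 genes (90.9%) held the CHR letters and 9 (81.8%) held both motifs. The shares over all 34 promoters were 79.4% and 73.5%, and the difference was not tested. Bub3 and Prc1 each entered with more than 1 overlapping promoter.

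The values are deposited log2 expression values, and 55.0% of all probe sets had a mean below 4, in a dense low group where a difference has an uncertain scale. The brightest probe sets of all 39 genes lay above that group, with means of 6.70 to 13.46. Such a level depends on the probes as well as on the RNA and does not rank genes. Of the 90 probe sets, 26 lay in the low group. Duplicate arrays had a Pearson correlation of 0.996 to 0.998 over all probe sets, the first principal component (69.9% of the variance) separated EA from YF arrays, and on the second (12.6%) YF with hormone replicate 1 stood apart at 55.8, against -32.6 to 14.3 for the other arrays. The 3′ minus 5′ log2 difference of the Gapdh control probe sets was 0.938 to 0.993 on EA arrays and 1.10 to 1.42 on YF arrays. For the beta-actin control probe sets it leaned the other way and overlapped, at 3.12 to 3.44 on EA arrays and 2.80 to 3.23 on YF arrays. The part of these controls in the EA against YF results was not tested. Of 11 fibroblast markers, 10 lay at 4 or more, and their summed level was 17.2 to 17.3 (log2) on every array, although 5 of them were lower in EA cells, Thy1 (-4.96) and Dcn (-4.45) by the most, and 1, Col6a1 (0.46), was higher. The summed epithelial markers, 6 of 7 in the low group, were at 9.43 to 10.3 on EA arrays and 5.44 to 6.23 on YF arrays, through Krt19, while Epcam and Cdh1 were in the low group. Leukocyte and macrophage markers, 7 of 9 in the low group including Ptprc, had sums of 11.0 to 11.5 on EA and 9.03 to 9.87 on YF arrays, mainly through Cd68. Endothelial markers had 6 of 7 in the low group (8.17 to 8.39 and 9.48 to 10.1), mesothelial markers 2 of 5 (8.82 to 9.14 and 7.37 to 8.54), neural and glial markers 3 of 5 (10.6 to 11.0 and 9.51 to 10.1), and striated muscle markers all 7. Single mesothelial markers moved far in opposite directions, with Msln (5.87) and Krt7 (3.01) higher and Wt1 (-5.29) lower in EA cells. Of the neural and glial markers 1 was higher and 2 were lower. The part of these marker differences in the results was not tested.

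More of the mitotic and G2/M genes were lower than higher in EA against YF cells, by small amounts. Averaged over treatments, 9 genes were lower in EA cells at an adjusted p under 0.05 (limma, adjusted over all probe sets), and these were Cdca8, Nuf2, Tpx2, Cdk1, Bub3, Prc1, Kif2c, Top2a and Ube2c. Cdc25b and Smc4 were higher. The 11 genes that passed are 28.2% of the 39, and the background is larger: 36.2% of the 10779 genes with a brightest probe set at 4 or more passed in this comparison. By direction, 23.1% of the genes were lower against a background of 16.6%, and 5.13% were higher against 19.7%. The median difference was -0.17 on the log2 scale, with 29 of 39 genes below 0, while the median over the 10779 genes was 0.05 and 44.4% of them were below 0. All 4 EA arrays lay below all 4 YF arrays in 11 genes and above them in 2, against backgrounds of 17.5% and 21.0%. The duplicate EA arrays without hormone differed by about as much as the mutants did: replicate 1 was above replicate 2 in 35 of 39 genes, by a median of 0.16. EA replicate 2 had the lowest median deviation of the 39 genes from their means over the 8 arrays, -0.18, against 0.02 for EA replicate 1, while over all genes at 4 or more these arrays had medians of 0.04 and 0.02. Without EA replicate 2 the median difference between the mutants was -0.12, with 25 of 39 genes below 0, and leaving out the other arrays in turn gave medians of -0.22 to -0.15. Lower differences ran from -0.15 for Ube2c to -0.55 for Kif2c, or 1.11-fold to 1.47-fold. The counts that follow, from fits without single arrays, stand without the share over all genes in the same fit. Leaving out single arrays gave 4 to 12 passing genes. The count was 7 without EA replicate 1, 4 without EA replicate 2, 6 without EA with hormone replicate 1, 5 without EA with hormone replicate 2 and 7 without YF replicate 1. Cdca8, Bub3, Nuf2 and Tpx2 passed with any of the 8 arrays left out.

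**Figure D1:**
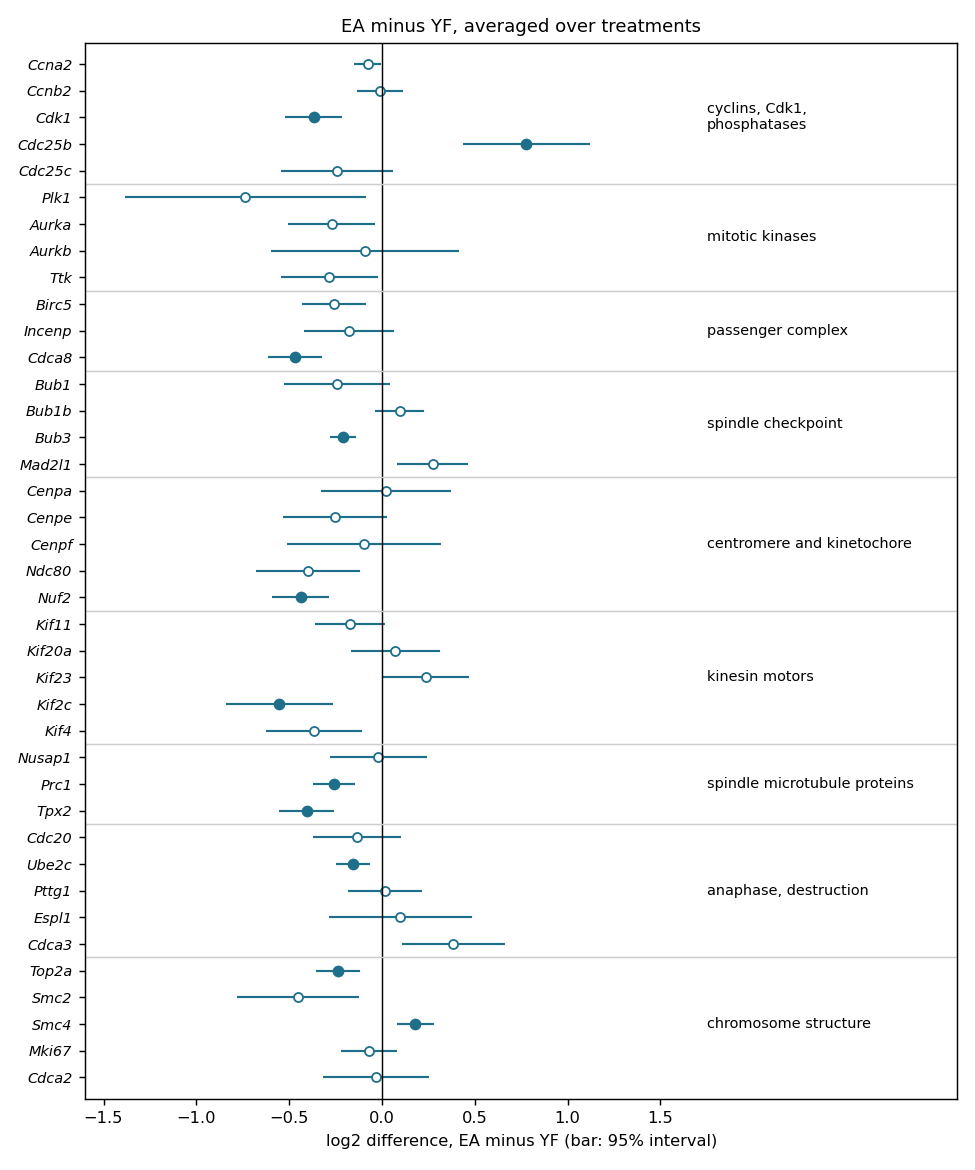
Log2 difference between EA and YF cells, averaged over treatments, for the 39 measured genes in order of role, with 95% intervals from limma. Filled points had an adjusted p under 0.05. 29 of 39 points lie left of 0, and Cdc25b, at 0.78, lies farthest to the right.

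Among the cyclins, Cdk1 and the Cdc25 phosphatases, 1 gene was higher and 1 lower of 5 measured. Cdk1, the kinase that drives entry into mitosis, had values of 11.95 and 11.87 in EA cells, 11.97 and 11.72 in EA cells with hormone, 12.08 and 12.13 in YF cells and 12.40 and 12.37 in YF cells with hormone. All EA arrays were below all YF arrays, and the highest values were those of YF cells with hormone. The averaged difference was -0.37 (SE 0.06, adjusted p = 0.0145). It was -0.54 with hormone (SE 0.09, adjusted p = 0.0209) and -0.20 without (SE 0.09, adjusted p = 0.288), the latter short of the threshold. The averaged call was lost without EA replicate 2 or without YF replicate 2. Cdc25b, a phosphatase that activates Cdk1, gave 10.80 and 10.70 in EA cells, 10.95 and 11.04 with hormone, 10.36 and 9.81 in YF cells and 10.21 and 9.99 with hormone. It was the gene with the largest averaged rise in EA over YF cells among the 39, by 0.78 (SE 0.14, adjusted p = 0.0171), a 1.71-fold difference without overlap between arrays. That call was lost when any 1 of the 4 EA arrays was left out. Ccna2 (-0.08), Ccnb2 (-0.01) and Cdc25c (-0.24) did not pass. A second, dimmer Ccna2 probe set did, as given below.

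The 4 mitotic kinases all had averaged differences below 0, and none passed. Plk1, which acts in centrosome maturation, spindle assembly and cytokinesis, showed 6.33 and 6.48 in EA cells, 6.16 and 6.35 in EA cells with hormone, 6.81 and 6.71 in YF cells, and 7.94 and 6.80 in YF cells with hormone. Every EA array was below every YF array, but YF with hormone replicate 1, the array that stood apart on the second component, was more than 1 log2 unit above its duplicate. The averaged difference was -0.74 (SE 0.26, adjusted p = 0.143). Without that array it was -0.45, and without its duplicate -1.02. Aurka, the spindle pole kinase, gave -0.27 (adjusted p = 0.136), and -0.36 without YF replicate 2. Ttk, the checkpoint kinase Mps1, gave -0.28 (adjusted p = 0.159). Aurkb, the kinase of the chromosomal passenger complex, gave -0.09 (adjusted p = 0.805), with an interval of -0.60 to 0.42.

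The 3 partners of Aurkb in the passenger complex were Cdca8, which encodes borealin, Birc5, which encodes survivin, and Incenp, the scaffold. Cdca8 was 11.99 and 11.86 in EA cells, 11.92 and 11.89 in EA cells with hormone, 12.53 and 12.33 in YF cells and 12.31 and 12.36 in YF cells with hormone. The EA arrays lay close together and below all YF arrays. Its averaged difference was -0.47 (SE 0.06, adjusted p = 0.00542), a 1.38-fold lower level, and the lowest p of the 39 genes. It also passed without hormone (-0.50, adjusted p = 0.0203) and with hormone (-0.43, adjusted p = 0.0331). A second Cdca8 probe set gave -0.58 (adjusted p = 0.0092). Birc5 gave -0.26 and missed the threshold (adjusted p = 0.0624), with EA arrays at 11.93 to 12.03 and YF arrays at 12.03 to 12.44. Incenp gave -0.18 (adjusted p = 0.368).

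**Figure D2:**
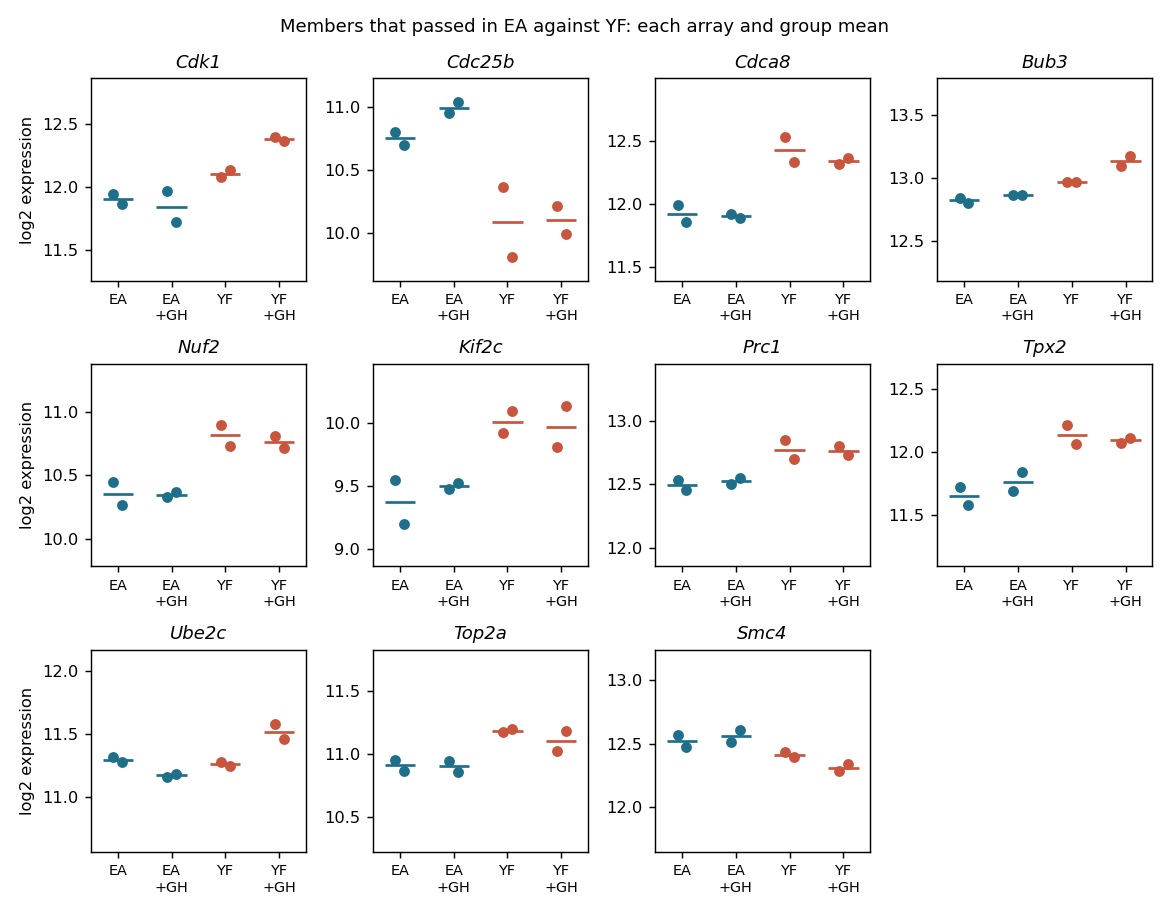
Log2 expression on each array (points) with group means (lines) for the 11 genes that passed in EA against YF averaged over treatments. Each panel spans 1.6 log2 units. The groups are EA, EA with growth hormone (GH), YF and YF with growth hormone, 2 arrays each. The EA and YF arrays of Ube2c overlap, and those of the other 10 genes do not.

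In the spindle checkpoint, which blocks anaphase while chromosomes are unattached, 1 gene of 4 passed. Bub3, which brings Bub1 and BubR1 to the kinetochore, had 12.84 and 12.80 in EA cells, 12.86 and 12.86 with hormone, 12.96 and 12.97 in YF cells and 13.10 and 13.17 with hormone. Every EA array was below every YF array, and the YF arrays with hormone were the highest. The averaged difference was -0.21 (SE 0.03, adjusted p = 0.00703), and with hormone it was -0.27 (adjusted p = 0.0153). A second Bub3 probe set, at 10.58 to 10.80 in EA and 11.40 to 11.63 in YF cells, gave a larger difference of -0.84 (SE 0.08, adjusted p = 0.00242). Mad2l1, which inhibits Cdc20, was at 0.27 (adjusted p = 0.0732), Bub1b, which encodes BubR1, at 0.09 (adjusted p = 0.397) and Bub1 at -0.24 (adjusted p = 0.277). None of these 3 passed on its brightest probe set.

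At the centromere and kinetochore 1 gene of 5 passed, and 4 had differences below 0. Nuf2, a subunit of the Ndc80 complex that binds microtubules, read 10.44 and 10.27 in EA cells, 10.33 and 10.37 in EA cells with hormone, 10.90 and 10.73 in YF cells and 10.81 and 10.72 in YF cells with hormone. The mutants did not overlap, and within each the arrays with and without hormone did. The averaged Nuf2 difference was -0.44 (SE 0.06, adjusted p = 0.00766), and it passed without hormone (-0.46, adjusted p = 0.0299) and with it (-0.42, adjusted p = 0.0416). Its partner Ndc80 gave -0.40 (SE 0.11, adjusted p = 0.0734), and -0.49 without YF replicate 2. Cenpe, a kinetochore motor (-0.25), Cenpf (-0.10) and Cenpa, the centromeric histone (0.02), did not pass.

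Of the 5 kinesins only Kif2c passed. It encodes MCAK, a kinesin that takes microtubules apart, and its values were 9.55 and 9.20 in EA cells, 9.48 and 9.52 with hormone, 9.92 and 10.10 in YF cells and 9.81 and 10.13 with hormone. The difference of -0.55 (SE 0.11, adjusted p = 0.0292) is the largest fall among passing brightest probe sets, without overlap, but it was lost in 6 of the 8 fits that left out an array and passed only without EA replicate 1 or YF with hormone replicate 1. Its probe set carries the suffix x, which marks probes shared with other sequences. That suffix is on 4 of the brightest probe sets, with those of Incenp, Cdc20 and Cdc25c. The suffix s, for probes shared by several transcripts, is on 6, among them Cdca8, Bub3 and Prc1. The second Cdca8 probe set carries it too. The part of shared probes in the results was not tested. Kif4, a chromokinesin, gave -0.37 (adjusted p = 0.0751), and Kif11, which pushes spindle poles apart, gave -0.17 (adjusted p = 0.242). Kif23 (0.24) and Kif20a (0.07), both motors of cytokinesis, had differences above 0 and did not pass.

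Both spindle proteins that passed, of 3, were lower in EA cells. Tpx2, which activates Aurka and starts microtubules near chromosomes, was 11.73 and 11.59 in EA cells, 11.70 and 11.84 in EA cells with hormone, 12.21 and 12.07 in YF cells and 12.07 and 12.11 with hormone. No EA array reached a YF array. The averaged difference was 1.32-fold (SE 0.06 on the log2 scale, adjusted p = 0.00924), and it passed without hormone (-0.49, adjusted p = 0.0237) but not with it (-0.32, adjusted p = 0.0789). Prc1, which bundles microtubules at the central spindle, had 12.53 and 12.46, 12.50 and 12.55 in EA cells without and with hormone, and 12.85 and 12.70, 12.80 and 12.73 in YF cells. It differed by -0.26 (SE 0.05, adjusted p = 0.0174), a call lost without EA replicate 2, either EA array with hormone or YF with hormone replicate 1. Nusap1, a microtubule-bundling protein, gave -0.02 (adjusted p = 0.914).

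Among genes of anaphase and protein destruction 1 of 5 passed. Ube2c, the ubiquitin-conjugating enzyme of the anaphase-promoting complex, read 11.32 and 11.28 in EA cells, 11.16 and 11.19 with hormone, 11.28 and 11.24 in YF cells and 11.58 and 11.46 with hormone. Without hormone the mutants overlapped, with a difference of 0.04 (SE 0.05), and with hormone they did not, with a difference of -0.34 (SE 0.05, adjusted p = 0.0157). The averaged difference of -0.15 (adjusted p = 0.0424) passed in only 1 of the 8 fits that left out an array, the one without YF with hormone replicate 2. Cdca3, a mitotic entry factor (0.38, adjusted p = 0.082), Espl1, which encodes separase (0.10), Pttg1, which encodes securin (0.01), and Cdc20, the activator of the anaphase-promoting complex (-0.13), did not pass. Without YF with hormone replicate 1 the Cdca3 difference was 0.49, higher in EA cells.

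Genes of chromosome structure went in both directions. Top2a, the topoisomerase that untangles sister DNA, had 10.96 and 10.87 in EA cells, 10.95 and 10.86 with hormone, 11.18 and 11.20 in YF cells and 11.03 and 11.18 with hormone, and differed by -0.24 (SE 0.05, adjusted p = 0.0269). Smc4, a condensin subunit, had 12.57 and 12.48, 12.51 and 12.61 in EA cells without and with hormone, and 12.43 and 12.39, 12.28 and 12.34 in YF cells. It was higher in EA cells by 0.18 (SE 0.04, adjusted p = 0.0341). The Top2a call was kept only without YF with hormone replicate 1 or 2, and the Smc4 call only without EA with hormone replicate 1. Smc2, the partner of Smc4 in condensin, differed in the other direction, by -0.45, and missed the threshold (adjusted p = 0.0825). Without YF with hormone replicate 1 the Smc2 difference was -0.58. Mki67, the proliferation antigen that coats mitotic chromosomes, lay between 12.30 and 12.57 on all 8 arrays. Its EA values of 12.47, 12.32, 12.44 and 12.34 overlapped its YF values of 12.47, 12.30, 12.57 and 12.51, and the difference of -0.07 (SE 0.06, adjusted p = 0.641) had a 95% interval of -0.22 to 0.08. Cdca2, which targets protein phosphatase 1 to anaphase chromatin, gave -0.03 (SE 0.11, adjusted p = 0.879).

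The size of the difference depended on which probe set of a gene was read. Over all 90 probe sets 20 were lower and 3 higher in EA cells, averaged over treatments. Of all probe sets tested 8.38% were lower and 8.17% higher, or 16.5% in either direction. But 55.0% of all probe sets lie in the low group, against 26 of these 90. The sets are unlike in level, so that background is not like for like. At least 1 probe set passed in 19 genes, 16 lower (41.0%) and 3 higher (7.69%). Of all genes with a brightest probe set at 4 or more, 22.0% had a probe set that passed lower, 23.7% one that passed higher and 44.9% either. In 8 of these (Ccna2, Bub1, Cdc20, Incenp, Nusap1, Pttg1, Smc2 and Cdca2) it was not the brightest. Of 19 genes with more than 1 probe set at 4 or more, 17 had the same sign on all such probe sets, and 0 had passing probe sets in both directions. A further 3 Smc2 probe sets passed lower, at -1.08 (SE 0.12, adjusted p = 0.00421), -1.37 (SE 0.13, adjusted p = 0.00239) and -1.23 (SE 0.20, the last from the low group), against the -0.45 of the brightest. For the first of these the EA arrays read 8.56 to 8.72 and the YF arrays 9.07 to 10.16. The dimmer Nusap1 probe set stood at 4.20 to 4.31 on EA arrays and 5.37 to 5.82 on YF arrays, a difference of -1.28 (SE 0.09, adjusted p = 0.00103), where the brightest gave -0.02. A second Ccna2 probe set was at 10.29 to 10.44 on EA arrays and 10.65 to 10.73 on YF arrays, a difference of -0.34 (SE 0.03, adjusted p = 0.00156). Bub1 (-0.68), Incenp (-0.50) and Cdc20 (-0.47) were also lower on a second probe set. A dimmer Pttg1 probe set was higher in EA cells by 0.90 (SE 0.14, adjusted p = 0.0111), while the brightest gave 0.01. Which part of each transcript a probe set covers was not analysed here.

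**Figure D3:**
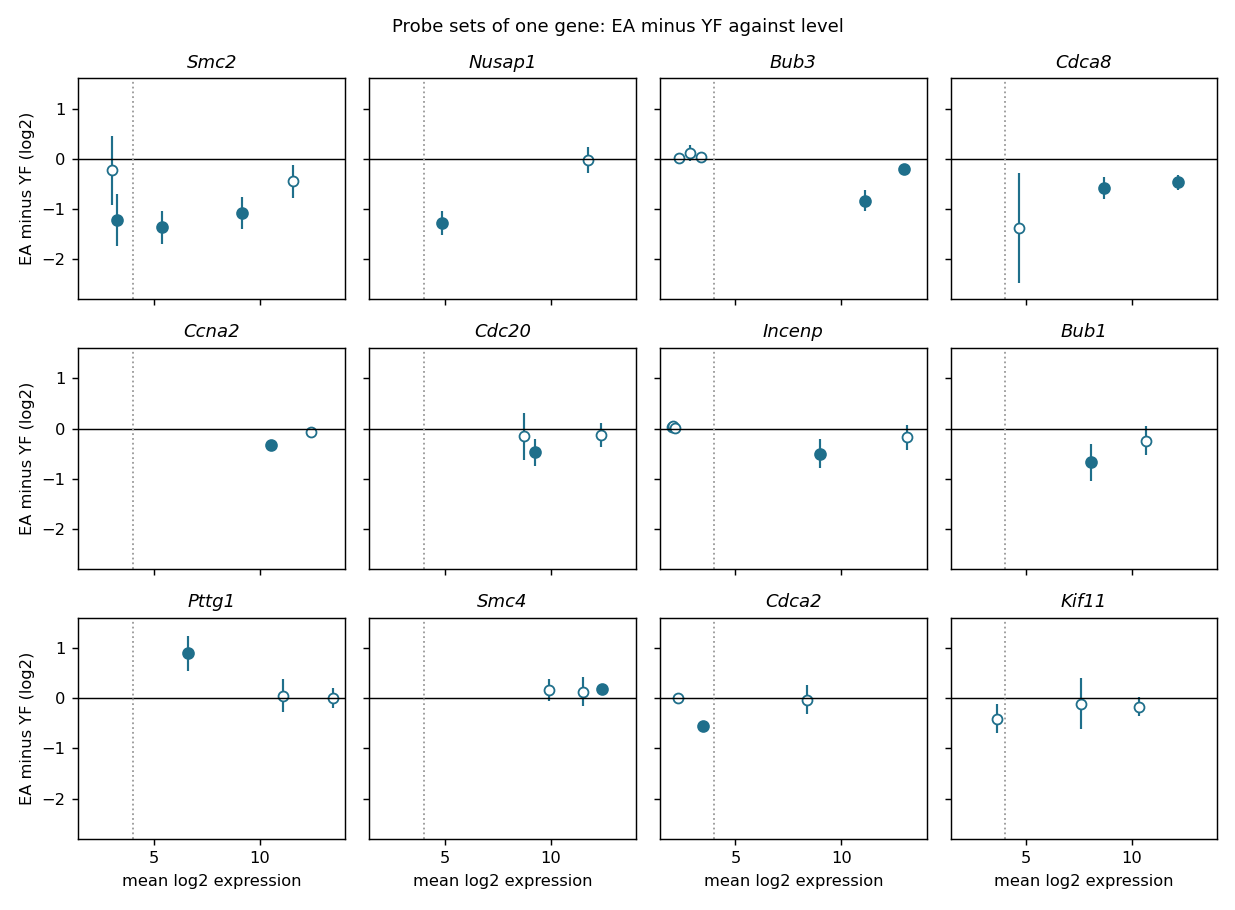
EA minus YF averaged over treatments (log2, with 95% intervals) against mean log2 expression, 1 point per probe set, for 12 genes picked after their values were seen because their probe sets differ. Filled points had an adjusted p under 0.05, and the dotted line marks a level of 4. The 3 filled Smc2 points lie at -1.08 or below while the brightest Smc2 probe set lies at -0.45.

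The comparisons of the mutants within each treatment set different arrays against each other. All 8 arrays enter each fit, however, and share 1 estimate of the spread of each probe set. The comparisons are therefore not independent. Without hormone 3 genes passed and all were lower in EA cells (Cdca8, Nuf2 and Tpx2), or 7.69% against a background of 10.5% lower and 23.6% in either direction. With hormone 6 passed, Cdc25b higher and Bub3, Cdca8, Cdk1, Nuf2 and Ube2c lower, or 12.8% lower against a background of 11.1%, and 2.56% higher against 10.6%, with 21.7% of genes passing in either direction. The median differences were -0.19 and -0.15. For the counts with single arrays left out, the share over all genes in the same fit is not given. Leaving out single arrays gave 0 to 6 genes without hormone and 1 to 6 with it. Without hormone, Cdca8, Nuf2 and Tpx2 all lost their calls without EA replicate 2 and without YF replicate 1. The genes counted were not always these. Without YF replicate 1 Cdc25b was counted, higher in EA cells (0.94). With either YF array with hormone left out, Cdca3 (0.53), Top2a (-0.27) and Smc2 (-0.63) were added. With hormone the count was 1 when either EA array with hormone was left out, 2 without YF with hormone replicate 1, and 4 without YF with hormone replicate 2, without EA replicate 1 or without EA replicate 2. Cdca8 and Nuf2 are the genes that passed in both on the brightest probe set. Other probe sets passed within a treatment too. With hormone a dimmer Kif11 probe set was lower in EA cells, at -1.38 to -1.28 over the alternative fits. Without hormone a dimmer Smc4 probe set was higher (0.49 to 0.79), and a Ttk probe set from the low group was lower (-0.49 to -0.38).

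Growth hormone changed none of the 39 genes at an adjusted p under 0.05 in either mutant. In EA cells the changes ran from -0.32 (Cdc25c) to 0.31 (Espl1) with a median of 0.02, the lowest adjusted p was 0.869, and 0 genes had an unadjusted p under 0.05, against a background of 10.5%. The background at an adjusted p under 0.05 in EA cells was 0.288% of genes at 4 or more. For 38 of the 39 genes the 95% interval of the change lay within -1 to 1, and for 26 it lay within -0.5 to 0.5, so changes beyond these bounds fall outside the intervals of those genes. Plk1, with an interval of -1.07 to 0.77, was the exception to the first bound. For Mki67 the interval was -0.22 to 0.21.

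In YF cells the changes ran from -0.27 (Mad2l1) to 0.61 (Plk1), with a median of 0.01 and a background of 0.278% at an adjusted p under 0.05. No gene passed in limma, and 7 had an unadjusted p under 0.05, of which 6 were higher with hormone and 1, Mad2l1, lower. The 6 are 15.4% of the genes, near the background of 12.3% higher at an unadjusted p under 0.05, and 9.89% of all genes were lower. Ube2c had the lowest adjusted p, 0.201, with a change of 0.26 (SE 0.05). The others with an unadjusted p under 0.05 were Cdk1 at 0.28 (adjusted p = 0.352), Bub3 at 0.17 (adjusted p = 0.252), Aurka at 0.35 (adjusted p = 0.419), Kif20a at 0.42 (adjusted p = 0.358) and Cdca2 at 0.53 (adjusted p = 0.34). These genes also have the YF arrays with hormone in their EA against YF comparison, so the sets of values are not independent. Of the 39 genes, 12 had both hormone arrays above both others and 6 had both below, against backgrounds of 31.4% and 23.7%. Plk1 rose by 1.18 (adjusted p = 0.0363) without YF with hormone replicate 2, which left only the array that stood apart on that side. The intervals lay within -1 to 1 for 38 genes and within -0.5 to 0.5 for 21.

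**Figure D4:**
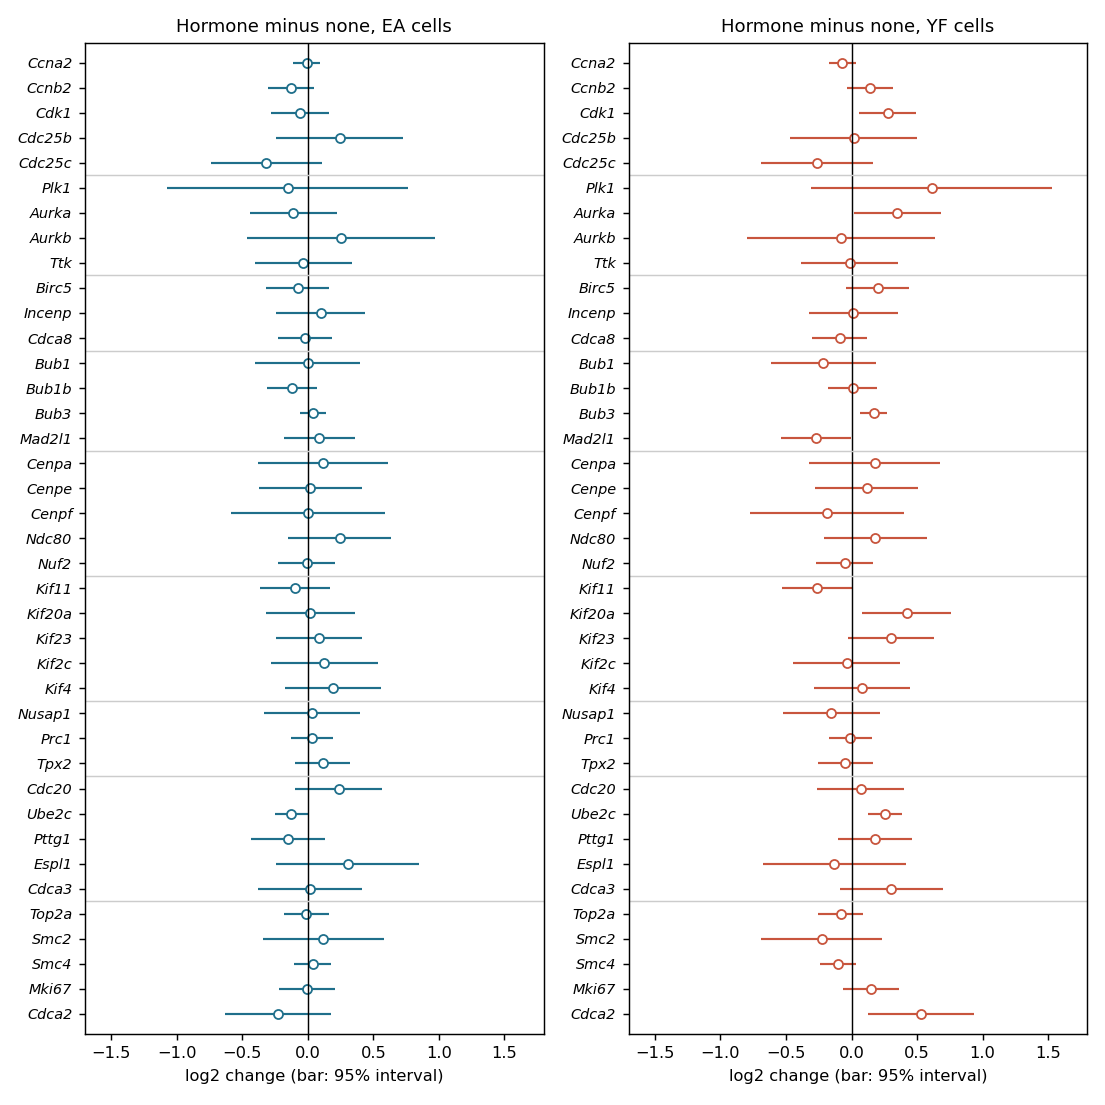
Log2 change with growth hormone in EA cells (left) and YF cells (right) for the 39 genes, with 95% intervals from limma. All points are open, as no adjusted p was under 0.05. Changes lie between -0.32 and 0.31 in EA cells and between -0.27 and 0.61 in YF cells.

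The difference of the hormone response between the mutants passed in none of the 39 genes on the brightest probe set, with a background of 0.0278%. The lowest adjusted p was 0.284, for Ube2c, with a change of -0.13 in EA and 0.26 in YF cells and a difference of -0.38 (SE 0.07). In all, 4 genes had an unadjusted p under 0.05, and in each the EA response was the lower one (Ube2c, Ccnb2, Cdk1 and Cdca2). These are 10.3% of the genes, near the background of 9.6% lower at an unadjusted p under 0.05. Cdca2 read 8.67 and 8.33 in EA cells, 8.41 and 8.13 with hormone, 8.26 and 8.04 in YF cells and 8.73 and 8.62 with hormone. The YF arrays with hormone were above the YF arrays without it, and the EA arrays overlapped. The difference of responses was -0.76 (SE 0.23, adjusted p = 0.446). A much dimmer Cdca2 probe set did pass. It stood at 3.20, 3.19, 3.12 and 3.21 on the EA arrays, at 3.21 and 3.22 in YF cells and at 4.23 and 4.24 in YF cells with hormone, a rise of 1.02 in YF cells (SE 0.04, adjusted p = 0.00741) from inside the low group. Its difference of responses was -1.05 (SE 0.06, adjusted p = 0.0282). That call was kept in 5 of 13 alternative fits and lost in 8, with adjusted p up to 0.257. The losses were without either EA array, either YF array or the YF with hormone array that stood apart, with trend and robust moderation, and with either replicate block. As an average of both mutants, hormone moved 0 of the 39 genes past the threshold in limma, with a background of 0.473%. At an unadjusted p under 0.05 there was 1 gene, Bub3, which was higher, against a background of 15.5% in either direction.

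Other lists of cell cycle genes differed in how far they departed from 0 between the mutants. Of 85 other mitotic genes measured, 12 were lower and 6 higher in EA cells averaged over treatments, with a median of -0.10. The largest were Haspin, a histone H3 kinase of mitosis (-1.14, SE 0.25), Fam83d, a spindle protein (0.80, SE 0.16), Melk, a kinase (-0.77, SE 0.07), and Fbxo5, an inhibitor of the anaphase-promoting complex (-0.69, SE 0.13). Of 46 DNA replication and G1/S genes 23 were lower and 1 higher, with a median of -0.34 and 45 of 46 below 0. Chaf1b, a chromatin assembly factor (-1.61, SE 0.23), Cdc6, which loads the replicative helicase (-1.20, SE 0.10), Rpa2, a single-strand binding protein (-0.99, SE 0.09), and Cdc45, a helicase component (-0.97, SE 0.15), led that list, and Rpa3 (0.74, SE 0.09) was the one that was higher. Of 13 subunits of the anaphase-promoting complex and its partners 1, Cdc23, was higher (0.35) and 0 were lower. Of 12 cohesin genes 0 passed, and 1 had an unadjusted p under 0.05 in limma, against a background of 53.0% in either direction. The medians of these lists were 0.05 and 0.03. The share passing over all genes at 4 or more was 36.2%, with 16.6% lower and 19.7% higher, and the difference between the lists was not tested.

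Regulators of G2/M transcription moved both ways. Of 23 measured, 6 (26.1%) were lower and 4 (17.4%) higher in EA cells, against the backgrounds of 16.6% and 19.7%. E2f7, a repressor of E2F targets (-0.88, SE 0.08), Tfdp2, a dimer partner of E2F proteins (-0.84, SE 0.07), and E2f6 (-0.56, SE 0.03) were lower, and Rbl2, which encodes the pocket protein p130 of the DREAM complex, was higher (0.47, SE 0.09). Foxm1, an activator of G2/M genes, had means of 9.42 and 9.24 in EA cells and 8.76 and 8.81 in YF cells without and with hormone, which made a difference of 0.54 (SE 0.14) and was short of the threshold (adjusted p = 0.0603). Mybl2, which encodes B-MYB, was at 6.26 and 6.28 in EA cells and 6.87 and 7.06 in YF cells, a difference of -0.70 (SE 0.22, adjusted p = 0.109). Of 14 cell cycle inhibitors 5 (35.7%) were higher and 4 (28.6%) lower. Cdkn1c, the inhibitor p57, was higher in EA cells by 2.15 (SE 0.15, adjusted p = 0.000922), and Cdkn1b, the inhibitor p27, had means of 13.04 and 13.08 in EA and 12.49 and 11.96 in YF cells, higher by 0.83 (SE 0.10, adjusted p = 0.00425). Rprm (-0.75, SE 0.09) and Btg2 (-0.75, SE 0.17), both p53-induced, were lower. Hormone moved none of the genes of these lists past the threshold in EA cells, and in YF cells only the inhibitor Sfn, which was at 2.07 without hormone and 2.79 with it, inside the low group.

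**Figure D5:**
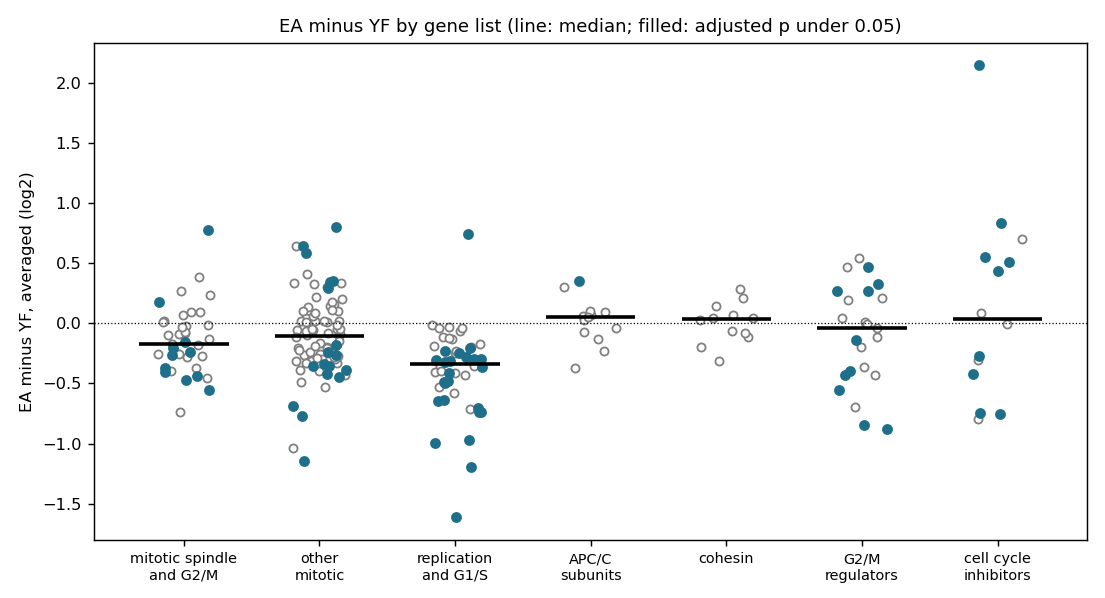
EA minus YF averaged over treatments (log2), 1 point per gene, for the mitotic and G2/M genes described here and 6 other cell cycle lists. Filled points had an adjusted p under 0.05, and black lines are medians. The median is -0.17 for the mitotic and G2/M genes and -0.34 for DNA replication and G1/S genes, where 45 of 46 points lie below 0.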

How the data were processed

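RNA from 8 samples was hybridised to Affymetrix expression arrays after biotin labelling, per the labels' protocols. The authors deposited log2 expression values per probe set. The submitters' processing notes name GCOS and RMA, without versions. How these tools were run is not given in the sources used here. Deposited values were used with no further normalization. Of 45101 probe sets, 64 controls were left out. In the platform annotation 34945 of the rest carried 1 gene symbol, 932 several (not named) and 9160 none. Gene identifiers matched the RefSeq table for 34741 of them, which changed 0 symbols.

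Differences were tested two-sided with limma 3.58.1 (R 4.3.3), lmFit and eBayes, on 4 group means over 8 arrays (4 residual degrees of freedom, prior 1.26). Benjamini-Hochberg adjustment was made over 45037 probe sets, and an adjusted p under 0.05 passed. A gene is its brightest 1-symbol probe set. The 7 comparisons were the hormone effect in each mutant, their difference, EA minus YF in each treatment, and both averages. Precision is limited by the number of arrays. The code was tested on simulated data. The alternatives were quantile normalization, centring, a filter on low levels, a replicate block, eBayes with trend and robust, fits of 2 groups, means over a gene's probe sets and leaving out each array.

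The genes and lists were chosen with earlier results of these data known. Array values are given for genes that passed in at least 1 of the 7 comparisons (at most 14) and for Cdk1, Plk1, Mki67 and Cdca2. The 11 genes that passed in EA against YF averaged over treatments include all that passed in another comparison. Promoters are shown for the 4 genes with the lowest p in that comparison that had an entry and do not lie on chromosome 18. Up to 4 genes of another list are named, those with the largest change among passing ones. Birc5, Aurka, Ndc80, Foxm1, Mybl2, Rpa3 and Sfn, the single marker genes named, the values of second probe sets and the genes with an unadjusted p under 0.05 were picked out after their values were seen. Summed marker levels are log2 of the sum of linear values.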

Additional observations from a re-analysis of the deposited data

Results flagged for a closer look

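A dim probe set of Cdca2, the gene of an anaphase protein that recruits protein phosphatase 1 to chromatin, had a hormone response that differed between the mutants by the test of the difference itself. The change with growth hormone was -0.03 in EA cells and 1.02 in YF cells, and the difference was -1.05 on the log2 scale (SE 0.06, limma adjusted p = 0.0282). Both duplicates of each group were close together, at 3.21 and 3.22 in YF cells and at 4.23 and 4.24 with hormone, and all but the last 2 values lie in the low group. The brighter Cdca2 probe set gave -0.76 for the same difference (SE 0.23, adjusted p = 0.446), in the same direction and short of the threshold. The call was kept in 5 of 13 alternative fits and lost in 8, where the adjusted p reached 0.257. Whether the dim probe set reads Cdca2 RNA was not tested.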

How the results depend on the processing

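The numbers below count passing genes among the 39. The share passing over all genes can change with the setting and is not given here for the alternatives. These counts therefore do not show whether the 39 genes changed more than other genes did. Main counts were 3 for EA against YF without hormone, 6 with hormone and 11 averaged over treatments, and 0 for the 4 comparisons that involve the hormone effect. Reading each gene as the mean of its probe sets gave 9, 11 and 17, the last as 15 lower and 2 higher. Without hormone the count was 7 with trend and robust moderation (2 higher, 5 lower), 5 with probe sets of at least 4 alone and 0 when only the 4 arrays compared were fitted, and with hormone that last fit gave 2. Quantile normalization gave 3, 5 and 10, and centring 4, 8 and 11. Leaving out single arrays gave 0 to 6 without hormone, 1 to 6 with hormone, 4 to 12 averaged, 0 to 1 for hormone in YF cells (Plk1) and 0 for the other hormone comparisons. Deviations of same-numbered arrays correlated at -0.38 to -0.09 between EA without hormone and the other groups. Among the other groups they correlated at 0.04 to 0.43. Whether arrays that share a number, as given or with the EA numbers crossed, were handled together was not tested. A replicate block gave 4 (2 higher, 2 lower), 8 and 12 genes, with 7 of the 11 averaged ones shared. A block with the EA numbers crossed, chosen after seeing the data, gave 5, 6 and 11. The refits of single results cover 50 probe-set results, brightest or not, chosen because they passed in these data. Of 737 refits, 528 stayed past the threshold, 209 lost it and 0 changed direction. The refits reuse the same arrays, so they are no independent test of direction. With 4 residual degrees of freedom, differences under about 0.24 in the comparisons averaged over treatments or mutants, 0.33 in those within a treatment or a mutant and 0.47 in the difference of hormone responses lie within the median half-width of a gene's 95% interval.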
